A study of Mus musculus with 12 samples.

Results

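Messenger RNA of 42 cell cycle genes was compared in regulatory T cells (Tregs) of 2 tissues and 2 T cell receptors (TCRs). The genes were taken by symbol from 24417 gene symbols listed once in each table. They comprise 23 genes of DNA replication and nucleotide supply, from Mcm2 to Dscc1, and 19 genes of G2 phase and mitosis, from Mki67 to Ube2c. A gene was analysed in a comparison when its mean normalized count over the 6 libraries compared was at least 10. All 23 replication genes passed in every comparison. All 19 G2/M genes passed in spleen between the TCRs and between the tissues in 4-8 cells, 18 passed between the tissues in 12-4.4m1 cells, and 16 passed in islets between the TCRs. Below the minimum lay Bub1 (8.00), Aurka (4.29) and Plk1 (9.31) in islets, and Aurka (7.71) in the 12-4.4m1 comparison. Just above it lay Dscc1 (10.4 to 12.3 in the 4 comparisons), Bub1b in islets (10.9) and Aurka in the 4-8 comparison (10.6).

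Tregs are T cells that express Foxp3 and restrain other immune cells. They came from retrogenic mice at an age of 6.8 weeks. The mice were NOD, a strain prone to autoimmune diabetes. Retrogenic mice receive bone marrow stem cells into which a TCR gene has been carried by a retrovirus; here a pair of insulin-specific receptors was used, 4-8, of high affinity, and 12-4.4m1, of low affinity. The 4 groups were 4-8 Tregs of pancreatic islets, 12-4.4m1 Tregs of pancreatic islets, 4-8 Tregs of spleen and 12-4.4m1 Tregs of spleen, each with 3 libraries. Every affinity is represented by 1 receptor, so affinity and receptor cannot be told apart, and the labels do not say whether libraries came from separate or pooled mice. The p-values therefore measure the spread between these libraries, which may be technical. In these bulk samples, a smaller share of cycling cells and less RNA of a gene in each cell cannot be told apart.

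Levels are given as rlog values, the authors' regularized log2 counts, and differences between groups are differences of rlog values, in log2 units. The authors made 1 table for each comparison and normalized it separately, so that rlog levels are read only within a table. The summed mean normalized count ranged from 898995 to 1316454 per table; the depth of each library is not given in the sources used here. All 8 Treg markers passed the minimum in every table. Their summed FPKM (fragments scaled to transcript length and library size, the authors' value per group) was 4873 in islets and 3199 in spleen for 4-8, and 4076 and 2922 for 12-4.4m1, so it was higher in islets as well; its part in the results was not tested. Of the markers of other dividing cells, 0 of 7 erythroid genes passed the minimum in any table. Of 8 B cell genes, 0 passed in islets or between the tissues and 2 passed between the receptors in spleen. The 8 summed to 3.36 FPKM in islets and 10.7 in spleen for 4-8, and to 2.95 and 13.3 for 12-4.4m1, so their sum was higher in spleen. Between the receptors in spleen the 8 summed to 11.2 FPKM in 4-8 and 13.8 in 12-4.4m1. Pax5 was listed at 0 in every group. Of 5 germinal centre B cell genes 3 passed in every table, led by Fas, which activated T cells express too. They summed to 39.3 FPKM in islets and 43.9 in spleen for 4-8 and to 53.6 and 59.7 for 12-4.4m1. Between the receptors in spleen the sums were 45.7 in 4-8 and 61.9 in 12-4.4m1. The plasmablast list was led by Prdm1 and Xbp1. It summed to 104 FPKM in 4-8 islets against 54.3 in spleen, and to 74.9 against 50.2 for 12-4.4m1. Mzb1 was listed at 0 in both islet groups, Sdc1 at 0 in every group but 12-4.4m1 islets, and Derl3 at 0 in 12-4.4m1 spleen only. Genes of the exocrine pancreas (acinar cells) moved with the tissue as well. Of 16, 7 passed the minimum; the 16 summed to 369 FPKM in 4-8 islets against 13.0 in spleen, and to 611 against 11.2 for 12-4.4m1, with 12 of 16 listed at 0 in either spleen group and Prss1 and Amy2a5 in either islet group. Their sum of back-transformed rlog values ranged from 112 to 207 in 4-8 islet libraries and from 79.3 to 87.4 in spleen, and from 195 to 254 against 98.4 to 108 for 12-4.4m1. The part of these lists in the results below was not tested. In 3 of the 6 islet libraries (4-8 replicate 2 and 12-4.4m1 replicates 1 and 2) the title is written in a different style, with the word Treg, and results are also given without them.

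A cell that enters the cycle transcribes its genes in waves. Late in G1 phase, factors of the E2F family switch on the genes that license origins, unwind DNA and copy it, and the MCM2-7 ring is the helicase at their centre. Later, in G2 phase, another wave brings the cyclins, kinases, motors and kinetochore proteins of mitosis. Those genes are held silent in resting cells by the DREAM complex and are later activated by B-MYB and FOXM1, both of which work through a promoter element called CHR; many also carry CCAAT boxes, which NF-Y binds. In Tregs, cycling is driven mainly by the TCR, CD28 and interleukin 2, and in tissues such cells often carry an activated profile.

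RefSeq promoters on GRCm38.p6, each 300 bases long with 250 bases before the start, were at hand for 35 of the 42 genes (not for Mcm4, Gins2, Pole, Dscc1, Ccna2, Aurkb and Tpx2). They were searched on both strands for E2F sites, written TTTCCCGC, TTTGGCGC, TTTCGCGC or TTTGCCGC, for the CHR element TTTGAA and for the CCAAT box. This search was added after the expression values had been seen. An E2F site was held by 9 of 19 replication promoters (Mcm3, Mcm5, Mcm6, Mcm7, Cdc6, Cdt1, Rfc3, Pola1 and Lig1) and by 1 of 16 G2/M promoters (Cdk1), against 2.6% of the promoters of 27025 genes. A shorter core of 7 letters, TTCCCGC or TTGGCGC, was held by 13 of 19 replication and 3 of 16 G2/M promoters, against 7.79% of all genes. The CHR element was held by 11 of 16 G2/M promoters and 2 of 19 replication promoters (Mcm2 and Fen1), against 20.2% of all genes. Both CHR and CCAAT were held by 11 of 16 G2/M and 1 of 19 replication promoters (Mcm2), against 8.97% of all genes. A match is a run of letters and not a measured binding site, and E2F sites on opposite strands can overlap.

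Of the sequences, 4 are shown because they carry this contrast: Mcm6 and Mcm5, replication genes that were higher in islets, Top2a, a G2/M gene with CHR elements, and Cdk1, the G2/M gene with both kinds. Each is the 250 bases before the start on the gene's own strand, 5′ to 3′, and capitals mark every E2F site, CHR element (TTTGAA or, reversed, TTCAAA) and CCAAT box (CCAAT or, reversed, ATTGG). They lie on GRCm38.p6 at chr1:128359706-128359955 (minus strand) for Mcm6, chr8:75109259-75109508 (plus) for Mcm5, chr11:99024190-99024439 (minus) for Top2a and chr10:69352913-69353162 (minus) for Cdk1.
Mcm6: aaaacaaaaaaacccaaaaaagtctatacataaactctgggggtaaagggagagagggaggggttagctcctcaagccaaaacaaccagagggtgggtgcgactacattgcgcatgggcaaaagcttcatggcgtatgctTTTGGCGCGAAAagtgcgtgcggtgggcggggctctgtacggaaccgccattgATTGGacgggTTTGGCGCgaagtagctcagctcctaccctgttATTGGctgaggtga
Mcm5: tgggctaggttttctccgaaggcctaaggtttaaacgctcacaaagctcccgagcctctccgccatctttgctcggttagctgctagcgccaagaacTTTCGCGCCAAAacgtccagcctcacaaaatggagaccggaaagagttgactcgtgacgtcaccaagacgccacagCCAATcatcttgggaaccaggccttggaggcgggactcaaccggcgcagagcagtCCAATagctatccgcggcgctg
Top2a: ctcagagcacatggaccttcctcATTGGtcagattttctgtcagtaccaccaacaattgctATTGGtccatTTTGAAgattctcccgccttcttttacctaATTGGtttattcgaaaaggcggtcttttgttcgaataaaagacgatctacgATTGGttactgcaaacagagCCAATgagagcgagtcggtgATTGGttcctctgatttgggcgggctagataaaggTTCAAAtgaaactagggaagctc
Cdk1: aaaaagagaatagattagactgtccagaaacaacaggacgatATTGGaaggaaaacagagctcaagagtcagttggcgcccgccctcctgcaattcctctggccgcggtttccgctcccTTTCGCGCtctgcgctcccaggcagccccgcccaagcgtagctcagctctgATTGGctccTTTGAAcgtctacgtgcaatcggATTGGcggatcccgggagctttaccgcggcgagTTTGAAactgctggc
Mcm6 held 3 E2F sites, the first 2 overlapping, Mcm5 held 2 that overlap, and neither held a CHR element. Top2a held 2 CHR elements and 6 CCAAT boxes with no E2F site. Cdk1 held 1 E2F site, 2 CHR elements and 3 CCAAT boxes.

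The tissue comparison asks how Tregs in the autoimmune target organ differ from Tregs with the same receptor in spleen. In 4-8 cells, genes of the helicase and of the fork were higher in islets, while no G2/M gene passed the test. Of the 23 replication genes, 7 were called higher at an adjusted p of 0.05 (limma on all 8981 genes tested, Benjamini-Hochberg adjustment) and 0 lower, where 5.14% of all genes tested were called higher and 2.84% lower. Of the 19 G2/M genes, 0 were called in either direction by limma or in the authors' DESeq2 table, and 0 of the 9 that Cuffdiff tested in theirs, and 1 (Cenpe) was lower in islets at an unadjusted p below 0.05, as were 10.6% of all genes. The median difference was 0.50 over the replication genes and -0.15 over the G2/M genes, beside -0.01 over all genes tested. In 15 of the 23 replication genes every islet library lay above every spleen library (14.3% of all genes), and 22 of 23 differences were above 0.

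Of the 6 helicase subunits 3 were called. Mcm6 had rlog values of 8.47, 8.54 and 8.61 in islets and 7.48, 7.47 and 7.72 in spleen, a difference of 0.98 ± 0.15 (SE; adjusted p = 0.00033, limma), or 1.98-fold. Its groups were separated by a wide margin. Mcm2 was at 7.29, 6.44 and 7.46 in islets against 6.26, 6.35 and 6.17 in spleen, a difference of 0.80 ± 0.22 (adjusted p = 0.031). Mcm5 was at 7.09, 6.60 and 7.11 against 6.30, 6.37 and 6.29, a difference of 0.61 ± 0.18 (adjusted p = 0.040). In both genes islet replicate 2 lay nearest to spleen but still above it. Mcm3, Mcm4 and Mcm7 had differences of 0.32, 0.39 and 0.50 and did not pass. Among the loading factors, Gins2, a subunit of the GINS complex that completes the active helicase, had a difference of 0.56, Cdt1, which brings the ring to origins, 0.53, and its partner Cdc6 0.17, and none of the 3 passed.

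At the fork itself, Prim1, the catalytic subunit of primase that lays the RNA primers, showed the largest rlog difference among the 42 genes; in the authors' deposited DESeq2 table Dscc1 had a larger log2 fold change (1.88 against 1.57). It was at 6.58, 6.15 and 6.86 in islets and at 5.51, 5.20 and 5.76 in spleen, a difference of 1.04 ± 0.21 (adjusted p = 0.00419). The groups did not overlap. Lig1, the ligase that seals Okazaki fragments, was at 7.57, 7.43 and 7.99 against 6.55, 7.37 and 7.03, a difference of 0.68 ± 0.20 (adjusted p = 0.0496), with islet replicate 2 just above spleen replicate 2. Rpa2, a subunit of the protein that coats single-stranded DNA, was at 7.49, 7.41 and 7.49 against 6.44, 6.96 and 6.99, a difference of 0.67 ± 0.17 (adjusted p = 0.0234). The islet values of Rpa2 lay close together and above every spleen value. Dscc1, part of an alternative clamp loader that works in sister chromatid cohesion, was at 3.41, 3.47 and 3.83 against 3.0, 2.82 and 2.75, a difference of 0.71 ± 0.17 (adjusted p = 0.013), with the fewest counts of the replication genes (a mean of 12.3). Pcna, the sliding clamp, was at 6.73, 7.0 and 6.98 against 6.34, 6.48 and 6.27. Its groups did not overlap, but its difference of 0.54 ± 0.16 missed the threshold (adjusted p = 0.0519, limma). It passed with a count minimum of 50 (adjusted p = 0.0380, limma), but in no fit with 1 library left out. Of the genes called, Mcm5, Mcm6 and Lig1 held an E2F site in the promoter searched. Mcm2, Prim1 and Rpa2 held none (Prim1 and Rpa2 held the shorter core), and Dscc1 had no promoter to search. Among replication genes not called, Mcm3, Mcm7, Cdc6, Cdt1, Rfc3 and Pola1 held an E2F site too. The site thus did not set the genes called apart, as 9 of 19 replication promoters held it.

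Mcm6 and Prim1 kept their calls whichever of the 6 libraries was removed. The number of genes called was 3 without spleen replicate 1, 2 or 3, 4 without islet replicate 1 or 3, and 11 without islet replicate 2. In the last of these fits 13.5% of all genes were called, and for the others that share is not given. Mcm2 and Mcm5 were called only without islet replicate 2 among these fits, Lig1 in 2, Rpa2 in 3 and Dscc1 in 4 of them. The call of Lig1 was also lost without the count minimum (adjusted p = 0.0728), without a trend (0.0672) and after centring (0.0503), and that of Mcm5 without the count minimum (adjusted p = 0.0580). Cenpe was called lower without islet replicate 1 (-0.74, adjusted p = 0.0497, limma). The G2/M median was 0.04 without islet replicate 2.

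Other fork genes did not pass. The clamp loader subunits Rfc3 and Rfc4 differed by 0.14 and -0.13, the polymerase subunits Pola1 and Pole by 0.04 and 0.26, and the flap nuclease Fen1 by 0.29. Of the genes of nucleotide supply, Tyms, the thymidylate synthase, had the widest difference (0.56, adjusted p = 0.0639), followed by Rrm2 (0.37), Dut (0.28) and Rrm1 (0.25). None of these 9 genes passed.

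Of the G2/M genes, Mki67, whose product coats mitotic chromosomes and is a common marker of cycling cells, was at 9.04, 8.82 and 8.75 in islets and at 8.66, 8.93 and 8.49 in spleen, a difference of 0.18 ± 0.15 (adjusted p = 0.542). Top2a, which untangles sister chromatids, was at 7.82, 7.53 and 8.28 against 7.32, 7.98 and 7.89, a difference of 0.14 ± 0.20 (adjusted p = 0.739). Both genes overlapped between the tissues. The kinetochore gene Cenpe was at 5.93, 5.31 and 5.17 against 5.75, 6.29 and 5.91, a difference of -0.51 ± 0.21 (adjusted p = 0.163). Cenpf, a kinetochore protein as well, was at 5.32, 4.87 and 5.05 against 5.37, 5.75 and 5.29, a difference of -0.39 ± 0.19 (adjusted p = 0.248), with only the highest islet library inside the spleen range. Bub1, a kinase of the spindle checkpoint, was at 3.83, 3.37 and 3.49 against 3.79, 4.10 and 3.78, a difference of -0.33 ± 0.18 (adjusted p = 0.302). Cdk1, Plk1, the Aurora kinases and the cyclins lay between -0.25 (Plk1, the only G2/M gene with every islet library below every spleen library, as in 13.1% of all genes) and 0.20 (Ccnb2). The remaining G2/M genes, from Bub1b (-0.32) to Birc5 (0.23), did not pass either.

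**Figure D1:**
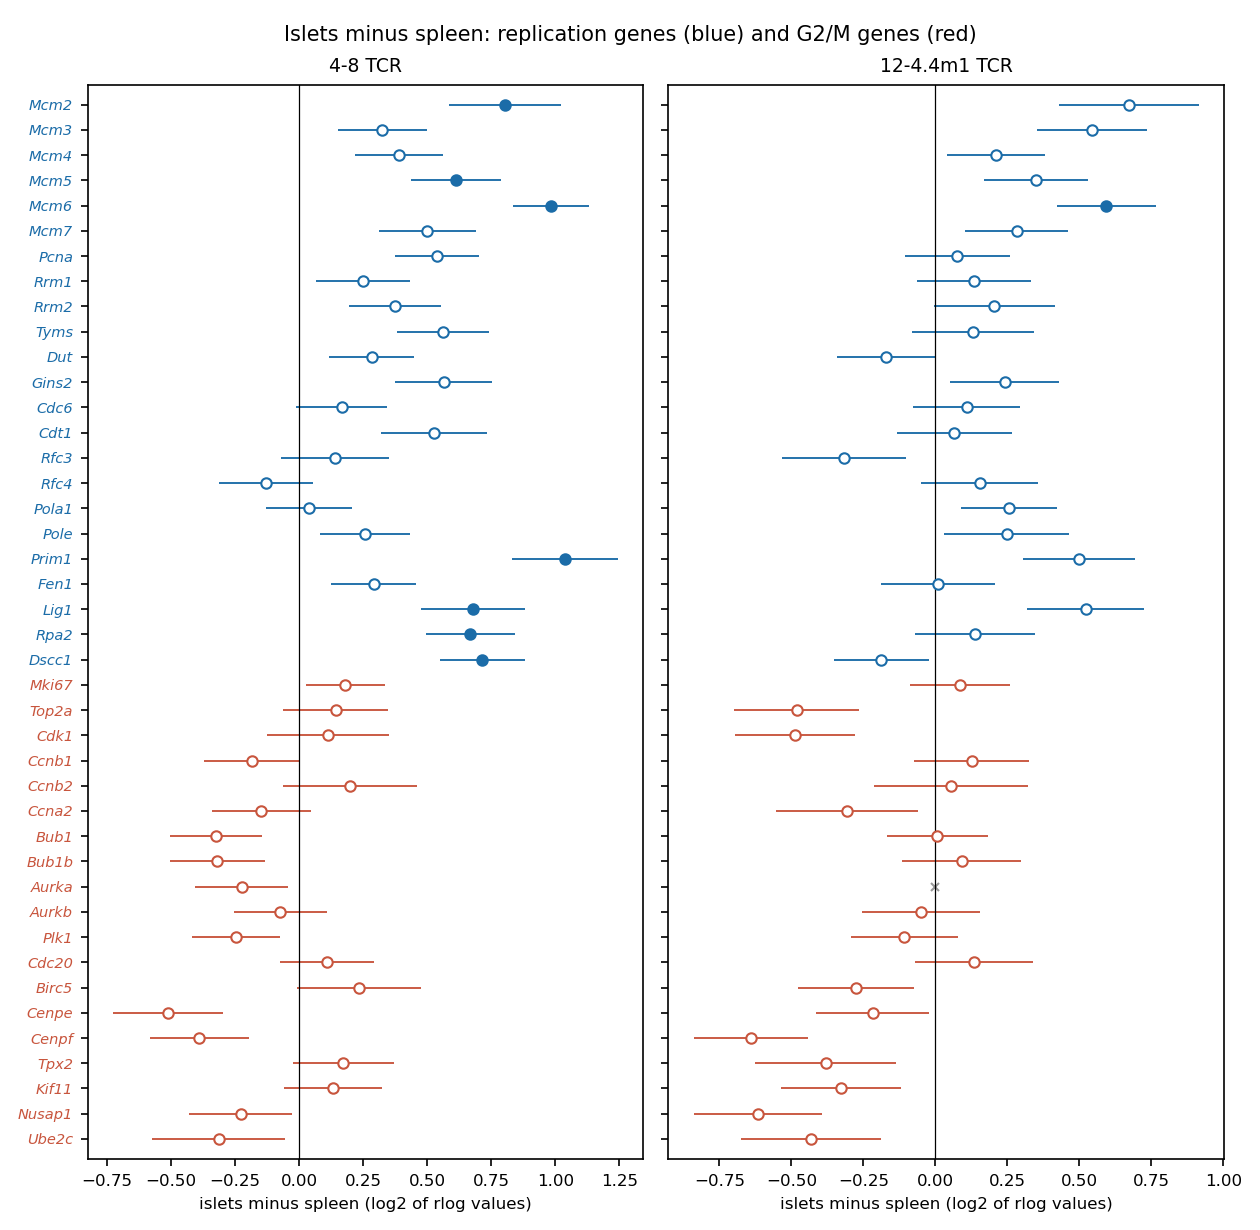
Islets minus spleen in log2 units for each of the 42 genes, in 4-8 Tregs (left) and 12-4.4m1 Tregs (right). Points are differences of group means of rlog values (3 against 3 libraries), bars are ± 1 SE, filled points passed an adjusted p of 0.05, and a grey cross marks a gene below the count minimum. In 4-8 cells 22 of 23 replication genes (blue) lie above 0 and 7 are filled, while the G2/M genes (red) scatter around 0.

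In 12-4.4m1 cells the same comparison gave fewer calls. Mcm6 alone was called higher in islets, 1 of 23 replication genes where 4.63% of all 8438 genes tested were called higher, which is a share near the background. Of the 23, 5 had an unadjusted p below 0.05 with the islets higher (11.2% of all genes), 20 had a difference above 0, and 4 did not overlap with the islets higher (13.2% of all genes). The median difference was 0.20 over the replication genes and -0.25 over the G2/M genes, beside -0.0023 over all genes tested. Without islet replicate 3 the replication median was 0.05. Of the 18 G2/M genes that passed the minimum 0 were called by limma (2.18% of all genes were called lower), with 4 lower in islets at an unadjusted p below 0.05 (9.04%). The authors' DESeq2 table called 0 and their Cuffdiff table, which tested 9, called 2 lower. The share of all genes called in those tables is not given here.

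Mcm6 was at 7.56, 7.70 and 8.11 in 12-4.4m1 islets and at 6.99, 7.42 and 7.17 in spleen, a difference of 0.59 ± 0.17 (adjusted p = 0.0356, limma), with no overlap. Its call was kept without islet replicate 1 and without spleen replicate 2, and lost without any other library. It was also lost without the count minimum (adjusted p = 0.0529) and without a trend in the fit (adjusted p = 0.0702, limma). Mcm3 was at 7.20, 7.66 and 7.78 against 6.76, 7.44 and 6.79, a difference of 0.55 ± 0.19 (adjusted p = 0.0907). Mcm2 was at 6.39, 5.37 and 6.73 against 5.37, 5.68 and 5.42, a difference of 0.67 ± 0.24 (adjusted p = 0.104). Mcm2 was split within the islets, with replicate 2 at the bottom of the spleen range and the other two well above it. Prim1 was at 5.42, 5.69 and 5.93 against 4.97, 5.19 and 5.38, and every islet library lay above spleen, by 0.50 ± 0.20 (adjusted p = 0.136). Lig1 was at 6.61, 7.44 and 7.39 against 6.35, 6.93 and 6.59, a difference of 0.52 ± 0.20 (adjusted p = 0.135), with islet replicate 1 inside the spleen range. Mcm5 was at 6.29, 6.37 and 5.96 against 5.72, 6.04 and 5.82, a difference of 0.35 ± 0.18 (adjusted p = 0.287). With single libraries removed, Mcm2 was called without islet replicate 2 (1.07, adjusted p = 0.0019), Lig1 and Mcm3 without islet replicate 1 (0.79 and 0.72) and Mcm3 without spleen replicate 2 (0.77).

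The other genes called in 4-8 cells, and Pcna, did not pass here. Rpa2 was at 6.46, 5.68 and 6.33 in islets against 5.68, 6.09 and 6.29 in spleen, a difference of 0.14 ± 0.21 (adjusted p = 0.773). Pcna was at 5.59, 5.72 and 6.0 against 5.65, 5.78 and 5.64, a difference of 0.08 ± 0.18 (adjusted p = 0.871). Dscc1 was at 3.10, 3.28 and 3.36 against 3.46, 3.37 and 3.48, every islet library lying below spleen, by -0.19 ± 0.17 (adjusted p = 0.578). Dut (-0.17) and Rfc3 (-0.32) were the other replication genes with a difference below 0.

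Among G2/M genes, Cenpf was at 4.71, 4.24 and 4.70 in 12-4.4m1 islets and at 4.98, 5.33 and 5.26 in spleen, without overlap, and its difference of -0.64 ± 0.20 just missed the threshold (adjusted p = 0.0521); it passed without a trend, with robust estimation and after centring (adjusted p = 0.0448, 0.0492 and 0.0488, limma). Nusap1, which bundles spindle microtubules, was at 4.32, 4.29 and 4.75 against 5.07, 5.52 and 4.61, a difference of -0.62 ± 0.22 (adjusted p = 0.100). Cdk1, the kinase that drives entry into mitosis, was at 5.46, 5.52 and 6.22 against 6.02, 6.54 and 6.10, a difference of -0.49 ± 0.21 (adjusted p = 0.176). Top2a was at 7.18, 6.60 and 7.56 against 7.31, 8.11 and 7.36, a difference of -0.48 ± 0.22 (adjusted p = 0.204). Mki67 was at 8.70, 8.39 and 8.97 against 8.31, 8.98 and 8.51, a difference of 0.09 ± 0.17 (adjusted p = 0.842). In Top2a, Cdk1, Nusap1 and Mki67 the highest spleen library was replicate 2. Without that library the median difference of the G2/M genes was -0.01 in place of -0.25. Without islet replicate 3, Cdk1 (-0.73), Cenpf (-0.72), Nusap1 (-0.77) and Top2a (-0.70) were called lower in islets and no replication gene was called; Nusap1 was also called without spleen replicate 3 (-0.85).

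**Figure D2:**
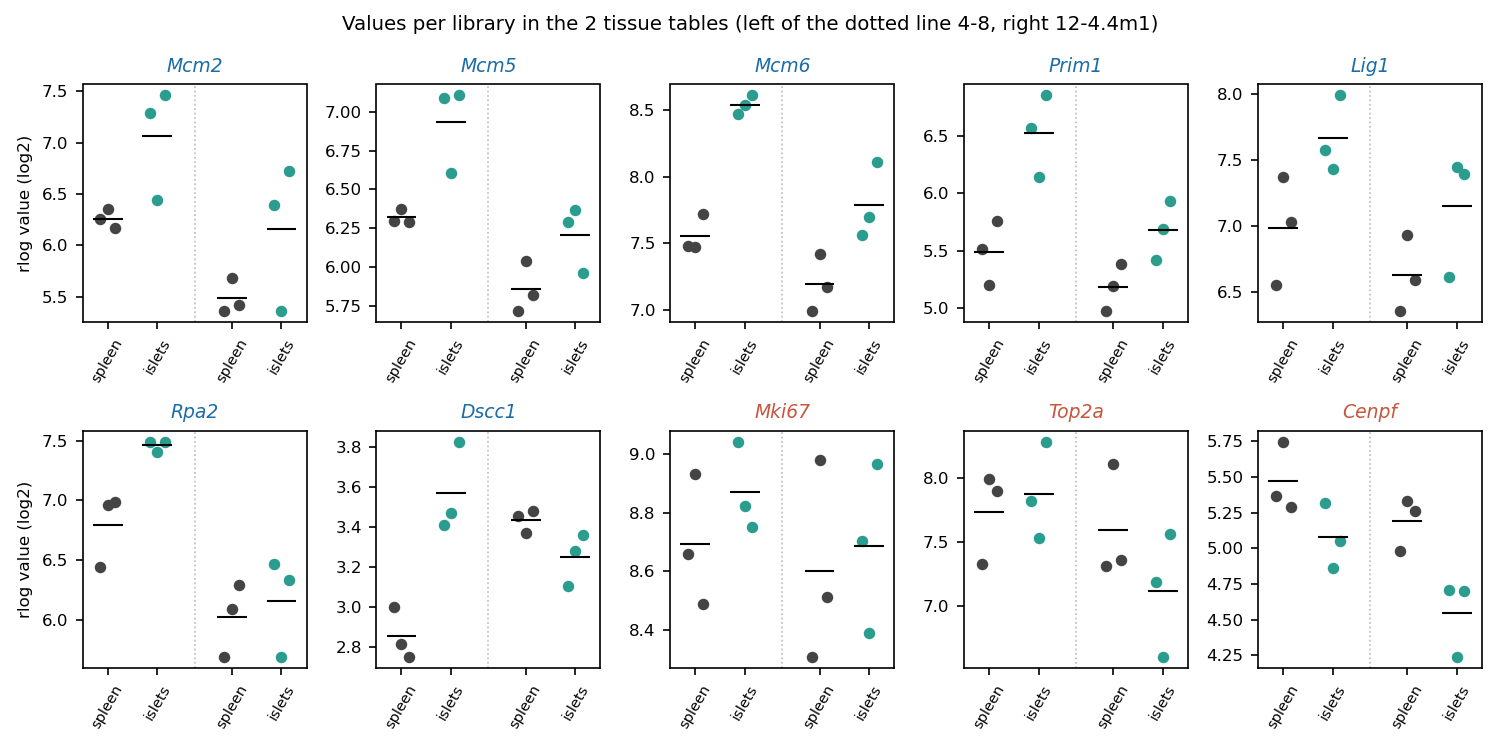
The rlog value (log2) of 10 genes in each library of both tissue tables, 4-8 left and 12-4.4m1 right of the dotted line; black lines are means of 3 libraries, blue titles are replication genes and red titles G2/M genes. Mcm6 and Prim1 are separated between the tissues for both receptors, whereas Mki67 and Top2a overlap; levels are comparable only within a table.

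The contrast between the classes can be read in each library as the mean rlog of the replication genes minus the mean of the G2/M genes that passed. In 4-8 cells this gap was 1.22, 1.40 and 1.32 in islets and 0.85, 0.58 and 0.86 in spleen. For 12-4.4m1 it was 0.78, 1.06 and 0.81 in islets and 0.62, 0.27 and 0.50 in spleen. For both receptors every islet library lay above every spleen library of its table; this is a description and was given no test. The gap was wider in islets by 0.55 in 4-8 and by 0.42 in 12-4.4m1. In 4-8, the replication mean was 6.47 ± 0.17 (SD, n = 3) in islets and 6.01 ± 0.10 in spleen, and the G2/M mean 5.15 ± 0.23 and 5.24 ± 0.23. In 12-4.4m1, the replication mean was 5.85 ± 0.17 and 5.64 ± 0.12, and the G2/M mean 4.96 ± 0.27 and 5.17 ± 0.30. The replication means of 12-4.4m1 overlapped between the tissues, as spleen replicate 2 (5.78) lay above islet replicates 1 and 2 (both 5.75). The libraries of the R title style alone gave a gap of 1.22 and 1.32 in 4-8 islets and 0.81 in the single 12-4.4m1 islet library, again above every spleen library of the table.

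**Figure D3:**
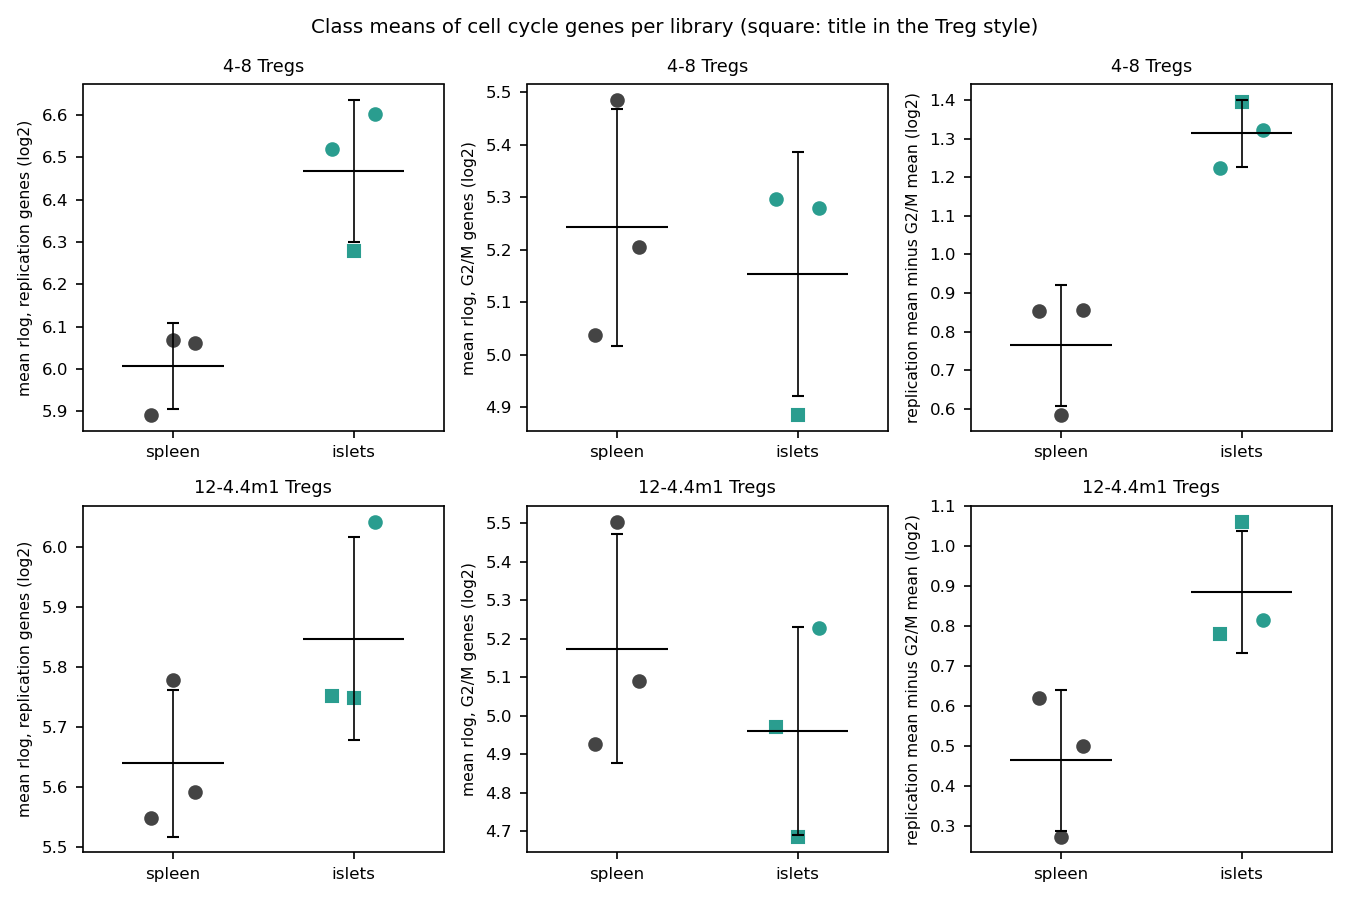
Mean rlog (log2) per library of the replication genes (left), of the G2/M genes (middle) and the difference of these means (right), for 4-8 (top) and 12-4.4m1 (bottom). Each point is a library, squares are those titled in the Treg style, and black lines are group means ± SD of 3 libraries. The difference is at least 1.22 in every 4-8 islet library and at most 0.86 in 4-8 spleen.

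G2/M genes had fewer counts than replication genes, and rlog values of low genes are drawn towards their mean. The median mean normalized count was 101 over the replication genes and 32.6 over the G2/M genes in the 4-8 table, and 67.1 and 30.5 in the 12-4.4m1 table. Among genes with at least 50 counts in 4-8, all 17 replication genes lay above 0 (median 0.53), and 4 of 6 G2/M genes did (median 0.13, from -0.51 to 0.23). In the 12-4.4m1 table the corresponding medians were 0.21 over 15 replication genes and -0.31 over 5 G2/M genes. In 4-8, none of the 6 G2/M genes with that many counts reached the median of the replication genes. These genes are few, and the part of low counts in the contrast was not tested.

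Both tissue tables were also fitted together, each library entering once with its table as a term, to obtain 1 tissue effect averaged over the receptors. This fit was added after the data had been seen. It called 8 replication genes higher in islets, where 10.5% of 8298 genes were called higher, and 1 of 18 G2/M genes lower, where 8.26% were. The 8 were Mcm6 (0.79 ± 0.12, adjusted p = 1.2e-05), Prim1 (0.77), Mcm2 (0.74), Lig1 (0.60), Mcm5 (0.48), Mcm3 (0.43), Gins2 (0.40) and Mcm7 (0.39), and the G2/M gene was Cenpf (-0.52 ± 0.14, adjusted p = 0.00923). In that fit 5 of the 6 subunits of the MCM2-7 helicase were thus called higher; Mcm4 had a difference of 0.30 (adjusted p = 0.0804). Mcm2, Mcm5, Mcm6, Prim1, Lig1 and Cenpf passed whichever of the 12 libraries was removed, Mcm3 and Mcm7 in 6 and Gins2 in 4. Without both spleen replicate 2 libraries, Cenpf (-0.41, adjusted p = 0.101) and Gins2 (0.40, adjusted p = 0.109) were not called, and without the count minimum Mcm7 and Gins2 were not (adjusted p = 0.0547 and 0.0525, limma). Without the 3 islet libraries titled in the Treg style, 15 replication genes and 1 G2/M gene (Ccnb2) were called, all higher in islets, where 23.2% of genes were called in either direction. Cenpf was not among them. In the tables alone, 11 genes were then called in 4-8 and 5 in 12-4.4m1 (Mcm2, Mcm3, Mcm6, Prim1 and Lig1, with 1 islet library left, which is assumed to vary like the spleen libraries), all replication genes higher in islets, where 13.5% and 9.29% of genes were called.

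Whether the tissue difference depended on the receptor was tested in the same joint fit, as the 4-8 difference minus the 12-4.4m1 difference. Of the 41 genes tested 0 were called, by limma, where 0.0121% of 8298 genes were; 1 had an unadjusted p below 0.05, against 5.57% of all genes. That gene was Dscc1, at 0.90 ± 0.22 (adjusted p = 0.450). The medians were 0.26 over the replication genes and 0.13 over the G2/M genes, beside -0.01 over all genes. For Mcm6 the dependence was 0.39 ± 0.23, for Prim1 0.54 ± 0.29, for Rpa2 0.53 ± 0.29 and for Pcna 0.46 ± 0.24, with adjusted p-values from 0.899 to 0.904. The larger number of calls in 4-8 is therefore not shown to be a difference between the receptors.

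The receptor comparison asks how Tregs with the high-affinity receptor differ from those with the low-affinity receptor in the same tissue. In islets 0 of the 39 genes that passed the minimum were called by limma, where 0.365% of 8212 genes were called, and 0 in the authors' DESeq2 table or among the 21 replication and 8 G2/M genes that Cuffdiff tested; 3 were higher in 4-8 at an unadjusted p below 0.05, as were 3.77% of all genes. The median difference, 4-8 minus 12-4.4m1, was 0.15 over the replication genes and 0.01 over the G2/M genes, beside -0.0040 over all genes. Of those 3, Rpa2 was at 6.92, 6.85 and 6.92 in 4-8 and at 6.61, 5.84 and 6.47 in 12-4.4m1, a difference of 0.59 ± 0.21 (adjusted p = 0.382). Pcna was at 6.17, 6.43 and 6.40 against 5.74, 5.84 and 6.11, a difference of 0.44 ± 0.19 (adjusted p = 0.652). Cdt1 was at 6.02, 5.67 and 6.42 against 5.23, 5.56 and 5.87, a difference of 0.49 ± 0.21 (adjusted p = 0.652). Rpa2, Pcna and Dscc1 did not overlap between the receptors, 3 of 23 replication genes where 5.92% of all genes lay apart in that direction. The mean rlog of the replication genes was 6.07, 5.87 and 6.14 in 4-8 and 5.80, 5.80 and 6.07 in 12-4.4m1, by replicate. The libraries titled in the Treg style (4-8 replicate 2, 12-4.4m1 replicates 1 and 2) all lay below the others. The receptors hold unequal numbers of such libraries, so title style and receptor are partly mixed in the median difference of 0.15.

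Of the genes called between the tissues, none passed between the receptors in islets. Mcm6 was at 8.05, 8.14 and 8.2 in 4-8 and at 7.64, 7.77 and 8.18 in 12-4.4m1, a difference of 0.27 ± 0.19. Mcm2 was at 6.85, 6.09 and 7.03 against 6.62, 5.61 and 6.93, a difference of 0.27 ± 0.26. In Mcm2, replicate 2 of both receptors was the lowest of its group. Prim1 was at 6.24, 5.89 and 6.50 against 5.70, 5.94 and 6.17, Lig1 at 7.15, 7.04 and 7.57 against 6.67, 7.48 and 7.43, and Mcm5 at 6.63, 6.20 and 6.65 against 6.39, 6.46 and 6.06. Dscc1 was at 3.38, 3.45 and 3.67 against 3.18, 3.32 and 3.38, a difference of 0.21 ± 0.16 (adjusted p = 0.852). Of the G2/M genes, Mki67 was at 8.55, 8.33 and 8.24 against 8.59, 8.27 and 8.85, and Top2a at 7.21, 6.94 and 7.67 against 7.05, 6.48 and 7.41. Both overlapped. The G2/M genes of smallest p were Cenpe, at 5.31, 4.82 and 4.71 against 5.38, 5.14 and 5.47 (-0.39 ± 0.20), Ccnb1, the main mitotic cyclin, at 3.52, 3.31 and 3.68 against 3.59, 3.67 and 4.00 (-0.25 ± 0.17), and Bub1b, at 3.26, 3.03 and 3.26 against 3.05, 3.40 and 3.80 (-0.23 ± 0.17).

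In spleen 1 of 23 replication genes, Dscc1, was called lower in 4-8, where 0.220% of 9108 genes were called lower. It was at 3.11, 3.01 and 2.98 in 4-8 and at 3.40, 3.36 and 3.39 in 12-4.4m1, a difference of -0.35 ± 0.08 (adjusted p = 0.0401, limma). Its groups did not overlap, but the call was lost whichever library was removed and in the authors' tables. The authors listed Dscc1 at 1.15 FPKM in 4-8 and 12.9 in 12-4.4m1 here. It may therefore have passed the minimum through the 12-4.4m1 libraries alone. Of the 19 G2/M genes 0 were called by limma or DESeq2, nor any of the 15 that Cuffdiff tested, and 4 were lower in 4-8 at an unadjusted p below 0.05, as were 4.44% of all genes. The median difference was -0.07 over the replication genes and -0.16 over the G2/M genes, beside -0.00091 over all genes. Dscc1, Dut and Cdk1 did not overlap, 3 of 42 genes where 6.48% of all genes lay apart in that direction.

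Cdk1 was at 6.36, 6.39 and 6.49 in 4-8 spleen and at 6.62, 7.13 and 6.68 in 12-4.4m1 spleen, without overlap, a difference of -0.40 ± 0.14 (adjusted p = 0.332). Kif11, a motor that pushes the spindle poles apart, was at 4.93, 5.32 and 4.94 against 5.30, 5.71 and 5.33 (-0.39 ± 0.14, adjusted p = 0.357). Tpx2, which activates Aurora A on the spindle, was at 4.79, 5.27 and 4.99 against 5.10, 5.69 and 5.35 (-0.36 ± 0.14, adjusted p = 0.454). In these 3 genes replicate 2 was the highest 12-4.4m1 library. Mki67 was at 8.77, 9.06 and 8.59 against 8.81, 9.52 and 9.02 (-0.31 ± 0.15, adjusted p = 0.624) and Top2a at 7.47, 8.13 and 8.04 against 7.92, 8.74 and 7.97 (-0.33 ± 0.17, adjusted p = 0.687). The mean rlog of the G2/M genes was 5.50, 6.01 and 5.62 in 12-4.4m1 and 5.40, 5.74 and 5.51 in 4-8. Without 12-4.4m1 replicate 2 the median difference of the G2/M genes was -0.0045 in place of -0.16.

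Of the other replication genes in spleen, Dut, which keeps uracil out of DNA, was at 7.01, 6.96 and 7.17 in 4-8 and at 7.30, 7.55 and 7.17 in 12-4.4m1 (-0.29 ± 0.13, adjusted p = 0.535), and Mcm4 at 6.84, 6.80 and 7.01 against 7.13, 7.14 and 6.91 (-0.18 ± 0.13, adjusted p = 0.778). Mcm2 was at 6.0, 6.10 and 5.96 against 5.78, 6.05 and 5.82, and Pcna at 6.25, 6.38 and 6.20 against 6.21, 6.34 and 6.21. Mcm6 was at 7.39, 7.38 and 7.63 against 7.41, 7.84 and 7.56, Mcm5 at 6.21, 6.28 and 6.22 against 6.15, 6.45 and 6.23, and Prim1 at 5.25, 5.05 and 5.45 against 5.19, 5.39 and 5.48. Lig1 was at 6.56, 7.30 and 6.99 against 6.78, 7.34 and 6.98, and Rpa2 at 6.36, 6.82 and 6.86 against 6.30, 6.66 and 6.82. In each of these 7 genes the ranges of the receptors overlapped, and the differences ran from -0.13 (Mcm6) to 0.14 (Mcm2).

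**Figure D4:**
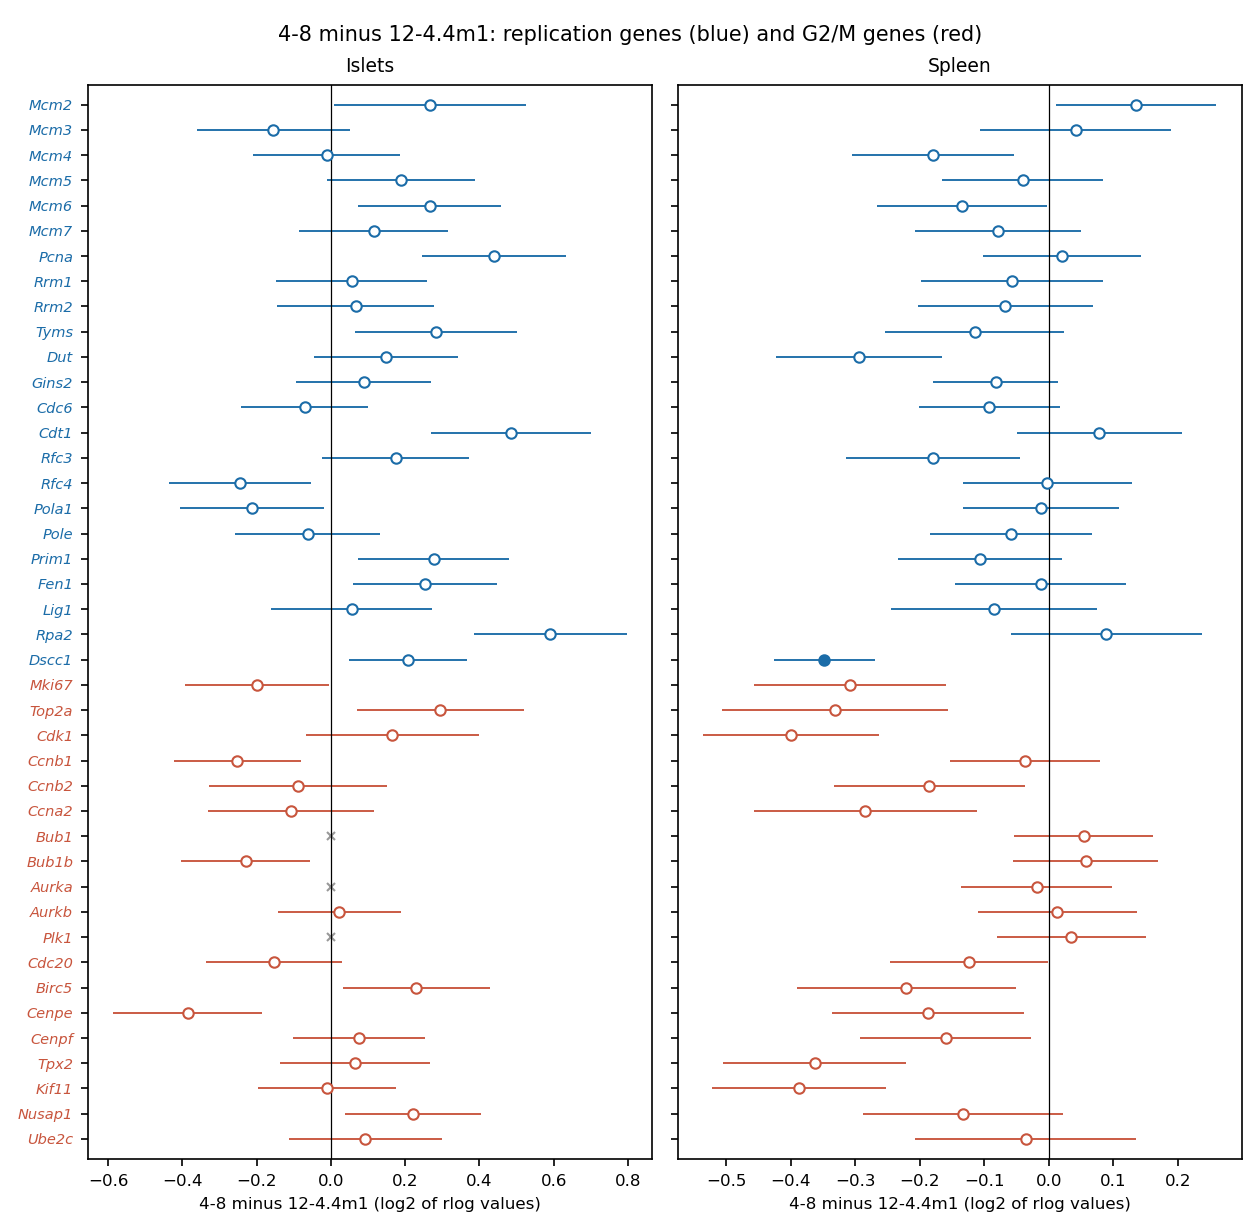
Differences between the receptors, 4-8 minus 12-4.4m1, in log2 units for each gene in islets (left) and spleen (right), drawn as in the plot of tissue differences. No gene is filled in islets and only Dscc1 is filled in spleen; most G2/M genes (red) lie below 0 in spleen, 15 of 19.

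Group levels per gene length, which the rlog values do not give, come from the authors' Cuffdiff tables as 1 FPKM value per group. In the authors' deposited table for 4-8, the FPKM of the 23 replication genes summed to 1032 in islets and 585 in spleen, a ratio of 1.76, and those of the 19 G2/M genes to 300 and 301, a ratio of 1.0. In their table for 12-4.4m1 the sums were 859 and 648 (1.33) for replication and 288 and 400 (0.72) for G2/M genes. By islet level, the most abundant replication gene in the authors' deposited table for 4-8 was Pcna, at 177 FPKM in islets and 104 in spleen. Mcm6 followed at 109 and 41.2, Rpa2 at 90.5 and 45.1 and Prim1 at 63.7 and 17.5, all higher in islets. The most abundant G2/M genes there were Birc5, an inhibitor of apoptosis that serves in the chromosomal passenger complex, at 69.2 and 57.2, Ube2c, which primes cyclins for destruction, at 36.7 and 51.4, Top2a at 35.0 and 29.6 and Mki67 at 34.8 and 29.9. The authors' deposited DESeq2 table called 6 of the 23 replication genes higher in 4-8 islets, with a median log2 fold change of 0.77, and their Cuffdiff table called 9 of the 21 it tested. For 12-4.4m1 the authors' deposited tables called 0 (DESeq2) and 5 (Cuffdiff) higher. In the authors' deposited tables of 12-4.4m1, the G2/M genes called lower by Cuffdiff were Top2a (24.6 in islets against 42.9 in spleen) and Nusap1 (5.60 against 16.0). The share of all genes that the authors' tests called is not given here, so these counts have no background beside them.

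Other genes of the cycle were read from lists chosen with earlier results of these data known. Their counts stand beside backgrounds of 5.14% called higher and 2.84% lower in 4-8, and 4.63% and 2.18% in 12-4.4m1. Of 49 further replication genes tested in 4-8, 1 was called higher in islets, the mismatch repair gene Msh6 (0.65 ± 0.16, adjusted p = 0.0168), and 0 lower; the median difference was 0.15. Of 46 tested in 12-4.4m1, 0 were called by limma (median 0.02), with 4 higher and 1 lower at an unadjusted p below 0.05. The joint fit called 4 of 45 higher, which were Uhrf1 (0.48) and Dnmt1 (0.33), partners in maintaining DNA methylation, Timeless (0.45), a fork protection protein, and Gmnn (0.39), the geminin that restrains Cdt1. The share of 4 in 45 is near the background of 10.5%. Among 58 further mitosis genes in 4-8, Cenpa, the histone of centromeres, was higher in islets (0.80 ± 0.17, adjusted p = 0.00681) and the condensin Smc4 lower (-0.57 ± 0.17, adjusted p = 0.0427). Smc4 alone was called among 59 in 12-4.4m1 (-0.70 ± 0.15), a share near the background. The medians over the mitosis genes were -0.0024 in 4-8 and -0.13 in 12-4.4m1. Between the receptors in spleen, 10 of 69 mitosis and 6 of 47 replication genes of these lists were lower in 4-8 at an unadjusted p below 0.05 (limma). None was higher at that level, and 4.44% of all genes were lower. Among the 19 G2/M genes above, the spleen median moved from -0.16 to -0.0045 without 12-4.4m1 replicate 2. For these lists no value without single libraries is given.

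Among regulators of entry into the cycle, Cdkn1a and Ccnd2 changed in islets for both receptors. Cdkn1a, which encodes the CDK inhibitor p21, was higher by 1.33 ± 0.21 in 4-8 (adjusted p = 0.000558) and by 0.74 ± 0.22 in 12-4.4m1 (adjusted p = 0.0405). Ccnd2, a D-type cyclin of G1 phase, was lower, with differences of -0.57 ± 0.14 and -0.70 ± 0.16. These were 1 of 16 brake genes in each table called higher, and 1 of 16 and 1 of 14 G1 cyclin, CDK and E2F genes called lower. With 1 gene per list, these shares are not set apart from the backgrounds given above. The pocket protein gene Rbl2, a DREAM subunit, was lower in 12-4.4m1 islets (-0.57 ± 0.16, adjusted p = 0.0245) and, between the receptors in spleen, lower in 4-8 (-0.49 ± 0.11, adjusted p = 0.0453), the only gene of these lists called there. Of the p53 and DNA damage genes, 3 of 24 were called higher in 4-8 and 3 of 21 in 12-4.4m1, which were Gadd45b (1.45 and 1.67), Plk3 (0.71 and 1.07) and Btg2 (0.68 and 0.78); all 3 are also known as genes switched on by stimulation. Ccng1 was lower in 12-4.4m1 (-0.65 ± 0.16). Among 15 chromatin and tubulin genes of dividing cells, Ran was higher in 4-8 islets (0.79 ± 0.20) and Dek lower in 12-4.4m1 islets (-0.72 ± 0.19), and none was called between the receptors. In the joint fit, where 10.5% of genes were called higher and 8.26% lower, the calls were 3 higher and 3 lower of 53 mitosis genes, 0 and 2 of 14 G1 genes, 2 and 2 of 15 brake genes, 3 and 2 of 21 p53 and DNA damage genes, and 2 and 3 of 15 chromatin and tubulin genes.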

How the data were processed

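The series holds 12 libraries, 3 in each of 4 groups, assigned by sample title. Per the labels, sorted cells were lysed with Triton X-100, RNA was reverse transcribed and amplified, and libraries were made with Nextera XT. Of tools, the submitters' processing notes name STAR 1.1.0 and TopHat 1.0.0 (aligners), Cufflinks, DESeq2 1.1.0 and DESeq, with build mm10 (GRCm38), without their role or order.

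For each of 4 comparisons the authors deposited rlog values on a log2 scale per library, which shrink low genes towards their mean. The DESeq2 table the authors deposited gave the mean normalized count (a signal over 6 libraries), a log2 fold change, a Wald statistic (a score) and a p-value. The Cuffdiff table the authors deposited gave 1 FPKM per group and a q-value.

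From these, limma 3.58.1 (lmFit, then eBayes with a trend, not robust) in R 4.3.3 was fitted to the rlog values of each table, for genes with a mean normalized count of at least 10, with 2-sided tests, Benjamini-Hochberg adjustment over all genes tested (8212 to 9108) and a threshold of 0.05. It was tested on simulated data. An exact permutation test of 3 against 3 cannot pass that threshold and was not used. A fit of both tissue tables together, the test of receptor dependence and the promoter search were added after seeing the data. The members and lists were chosen with earlier results of these data known. Values per library are given for every gene called, for the 3 genes of smallest p per comparison and class, and for Mki67, Top2a, Pcna and Mcm2; of other lists, up to 4 genes called.

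In the islet table, the replicate number of 1 column of the 4-8 group fits none of the titles; the column was kept in its group as replicate 3, by elimination. The descriptions of spleen replicate 2 of each receptor name the other receptor's table; titles were used. Rows of symbols listed more than once (4) were left out. Same-numbered libraries of 2 groups correlated, as deviations from their group means, between -0.118 and 0.209, and above 0.1 for every pair in none of the comparisons, so the numbers were not taken to pair libraries. Alternatives covered the filter, the trend, robust estimation, centring, a replicate block, the title style, each library left out and the authors' own tests.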

Additional observations from a re-analysis of the deposited data

Results flagged for a closer look

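Dscc1, which encodes a subunit of an alternative clamp loader, moved in opposite directions for the receptors, with every library of 1 group on 1 side of every library of the other. Its islet minus spleen difference was 0.71 in 4-8, where it was called, and -0.19 in 12-4.4m1, where it was not. Its 4-8 minus 12-4.4m1 difference was 0.21 in islets and -0.35 in spleen. These 4 differences share libraries and are not independent. The difference of the tissue differences was 0.90 ± 0.22 from the tissue tables (limma, adjusted p = 0.450 over 8298 genes) and 0.56 ± 0.16 from the receptor tables (adjusted p = 0.628), so it did not pass the adjustment in either. The gene has a mean normalized count of 10.4 to 12.3, close to the minimum used. Where its FPKM differed widely between groups, it may have passed that minimum through the higher group alone. The authors' deposited tables listed it at 13.9 FPKM in 4-8 islets, 1.1 in 4-8 spleen, 6.20 in 12-4.4m1 islets and 12.4 in 12-4.4m1 spleen.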

How the results depend on the processing

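Each alternative changed 1 choice, except the authors' tests, which differ in values, model and genes tested at once. Of the 937 values of single genes, 825 kept their direction and their side of the threshold, 67 lost a call, 23 gained one and 22 changed sign, none of them called. Most of the values belong to genes not called in the main fits, which had no call to lose, and some settings left out the same library. The 825 therefore do not measure how stable the calls were. In spleen the 1 gene called between the receptors became 0 without the count minimum, without a trend, without both spleen replicate 2 libraries, and in the authors' DESeq2 and Cuffdiff tests. With a minimum of 50 the gene called, Dscc1, was not tested, so the 0 found there was fixed in advance. In 4-8 tissue, where 7 genes were called, 11 were called without the islet library titled in the Treg style and 3 without spleen replicate 2; the G2/M median was 0.13 with a minimum of 50 and the replication median 0.77 in the authors' DESeq2 test. In 12-4.4m1 tissue, where 1 gene was called, 0 were called without the minimum and in the authors' DESeq2 test, 2 with robust estimation and 2 after centring (1 higher and 1 lower in each), 5 without the Treg-titled libraries, 2 without spleen replicate 2 and 7 by Cuffdiff (5 higher, 2 lower). Without the Treg-titled libraries the joint fit called 16 genes, with a replication median of 0.48. The share of all genes called is given only without the Treg-titled libraries, so the other counts have no background beside them. Apart from the loss of Dscc1 with a minimum of 50, the cause was not tested for any of these.

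With replicate number as a block, the genes called were 0 in islets, 1 in spleen, 7 in 4-8 tissue, 5 in 12-4.4m1 tissue (4 higher, 1 lower), 10 in the joint fit (9 higher, 1 lower) and 0 for receptor dependence. The share of all genes called with the block is not given, so these counts have no background beside them. The numbers were not taken to pair libraries; in spleen every library correlated best with its own number (0.0748 to 0.120), a hint from the data and not the design.

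With 1 library left out, the genes called ranged from 0 to 0 in islets and in spleen, from 3 to 11 in 4-8 tissue, from 0 to 4 in 12-4.4m1 tissue, from 6 to 9 in the joint fit, and stayed at 0 for receptor dependence. Among these fits the share of all genes called is given only for 4-8 tissue without islet replicate 2. The replication median ranged from 0.33 to 0.50 in 4-8 tissue, 0.053 to 0.26 in 12-4.4m1 tissue, 0.26 to 0.37 in the joint fit, 0.082 to 0.26 in islets, -0.12 to 0.025 in spleen and 0.16 to 0.40 for receptor dependence. The G2/M median ranged from -0.20 to 0.041, -0.36 to -0.012, -0.19 to -0.051, -0.15 to 0.094, -0.27 to -0.0045 and -0.11 to 0.35 in the same order.

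The sign changes were as follows. Between the receptors in islets, title style as a term gave -0.011 for Mcm2 and -0.055 for Lig1, and leaving out 1 library gave -0.12 to 0.55 for Mcm2 and -0.20 to 0.20 for Lig1 (-0.10 without 4-8 replicate 3). In spleen, leaving out both replicate 2 libraries gave 0.023 for Mcm5, 0.027 for Mcm6 and 0.0076 for Prim1. Leaving out 1 spleen library gave -0.030 to 0.063 for Pcna (-0.0030 without 12-4.4m1 replicate 3), -0.10 to 0.046 for Mcm5, -0.26 to 0.11 for Lig1 (0.067 without 12-4.4m1 replicate 2) and -0.058 to 0.25 for Rpa2. In 4-8 tissue the range was -0.064 to 0.31 for Top2a (-0.060 without islet replicate 3). In 12-4.4m1 tissue it was -0.060 to 0.28 for Mki67 (-0.053 without islet replicate 3), -0.038 to 0.17 for Pcna and -0.029 to 0.38 for Rpa2 (-0.012 without islet replicate 1), and Cdk1 was at 0.00041 without the Treg-titled libraries.

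The depth of each library is not given in the sources used here, and no limit of detection was set.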
